A study of Mus musculus with 7 samples.

Results

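The genes described here are 43 transcription factors and cofactors that pattern mesoderm and neural crest in the embryo, HOX genes left out. They were taken by symbol from the 35727 genes of a count table of mouse sarcoma cells, and all 43 had a row. They fall into COUP-TF nuclear receptors (Nr2f1 and Nr2f2), ZIC zinc fingers (Zic1 and Zic2), T-box factors (Tbx2, Tbx3, Tbx4, Tbx5, Tbx15, Tbx18 and Tbx20) and TALE homeodomain factors (Meis1, Meis2, Meis3, Pbx2 and Pbx3). The others are the EYA-SIX-DACH network (Six2, Six4, Six5, Eya1, Eya2, Eya3, Eya4 and Dach1), the MSX, DLX and BARX homeodomain factors (Msx1, Msx2, Dlx1, Dlx2, Dlx5 and Barx1), paired-like and LIM homeodomain factors (Alx1, Alx4, Pitx1, Shox2 and Lmx1b), AP-2 factors (Tfap2a and Tfap2c), bHLH factors (Hand1, Hand2 and Tcf21) and forkhead factors (Foxf1, Foxf2 and Foxd1).

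These factors give positional identity to connective tissue precursors. T-box, TALE and other homeodomain factors are laid down in domains along the body axes and the limb, and mesenchymal cells of the adult keep parts of that code according to where in the body they arose. The ZIC, AP-2, MSX and DLX factors also act at the neural plate border and in the cranial neural crest, which gives rise to bone, cartilage and connective tissue of the face.

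Libraries of polyA RNA came from tumour cells of a pair of mouse models of undifferentiated pleomorphic sarcoma, 4 labelled Ccne1 and 3 labelled Vgll3. Female p53KO mice on the C57/Bl6 background gave the mesenchymal stem cells behind both, so loss of p53 is shared by both groups. Ccne1, a cyclin that drives entry into S phase, or Vgll3, a TEAD cofactor, was overexpressed from a retrovirus. Each line had been passaged subcutaneously in female wild-type mice, expanded for a short time in culture and transplanted again, and RFP+ tumour cells were sorted; host age was not given. Each model is 1 tumour line, so the overexpressed gene cannot be told apart from any other difference between the lines, and the labels do not say that the libraries came from separate tumours, so p-values measure only the spread between these libraries. Levels are in CPM with TMM scaling between libraries, and fold changes are Vgll3-labelled over Ccne1-labelled.

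Library totals ran from 21725890 to 53610300 counts. Vgll3 averaged 50.7 ± 8.57 CPM (SD, n = 4) in the Ccne1-labelled libraries and 252 ± 34.6 (SD, n = 3) in the Vgll3-labelled libraries. Ccne1 averaged 12.7 ± 5.61 and 14.9 ± 2.16 CPM and did not pass the test, so the level of Ccne1 does not bear out its label, and the groups are called by their labels throughout. Vgll3-labelled replicate 3 stood apart: its log2 CPM correlated with the other libraries of its group at r of 0.959 to 0.963, against 0.980 to 0.988 for the other pairs within a group. Some markers of host cells moved with the groups or with that library. The summed CPM of 10 macrophage markers was 59.1 to 79.5 in the Ccne1-labelled and 11.7 to 21.2 in the Vgll3-labelled libraries, where the gap lay in Cd14 (59.4 and 6.39 CPM on average), the only marker of the 10 that passed the test. Of 6 pericyte and smooth muscle markers 3 (Rgs5, Notch3 and Des) were higher in the Vgll3-labelled libraries, with sums of 6.73 to 9.28 and 16.8 to 26.8 CPM. Kcnj8 and Abcc9 of that list went the other way without passing the test (log2 fold change -1.31 and -0.55, edgeR Benjamini-Hochberg adjusted p = 0.0628 and 0.267). Myh11 was too low to test. The 7 endothelial markers summed to 49.2 to 132 and 33.6 to 230 CPM, with Pecam1 at 184 CPM in Vgll3-labelled replicate 3. Kdr was also highest in that library (7.36 CPM). Cdh5, Tek, Tie1, Emcn and Vwf were lower there than in Ccne1-labelled replicate 1 (Cdh5 at 17.2 and 26.2 CPM). None of the 7 passed the test. Erythroid sums were 5.73 to 10.3 against 0.189 to 2.21 CPM, skeletal muscle 3.28 to 4.78 against 1.06 to 1.50, keratinocyte 2.29 to 4.87 against 0.151 to 1.14, adipocyte 0.836 to 2.29 against 0.193 to 0.937, Schwann cell and melanocyte 1.34 to 1.83 against 1.54 to 6.59, and lymphocyte 0.991 to 1.82 against 1.48 to 6.12. Hba-a1, Acta1, Krt8 and Fabp4, the highest genes of the first 4 of these lists, passed the test as lower in the Vgll3-labelled libraries, and Cd79a was the highest lymphocyte marker. Krt8 was the only keratinocyte marker of 7, and Fabp4 the only adipocyte marker of 5, that could be tested. The other tested skeletal muscle marker, Tnnt3, did not pass (log2 fold change 0.82, edgeR Benjamini-Hochberg adjusted p = 0.149). Krt5, Cidec and Lep were at 0 in every library. The part of these markers in the results below was not tested. In bulk libraries, fewer cells that express a gene and less RNA per cell cannot be told apart.

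Of the 43 factors, 28 passed the filter on low counts, and 19 of these differed between the models: 8 were higher and 11 lower in the Vgll3-labelled libraries (edgeR quasi-likelihood test, Benjamini-Hochberg adjusted p under 0.05). Over all 13740 genes tested, 51.9% were called, 25.1% as higher and 26.8% as lower. The patterning factors' shares were 28.6% higher and 39.3% lower, and the models differ so widely that a call alone sets no gene apart. Their median log2 fold change was -0.15 against 0.01 over all genes, and their median absolute log2 fold change 0.54 against 0.43. At 2-fold or more, 6 of the 28 tested factors were higher and 4 of the 28 lower, where 9.20% and 7.49% of all genes were. The factors were chosen with earlier results of these data known, so a share above that of all genes is no test. Of the 28 tested factors, 19 had groups that did not overlap, 8 above and 11 below, and these were the called factors. Of all genes tested, 55.7% had groups that did not overlap, 26.8% above and 29.0% below.

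**Figure D1:**
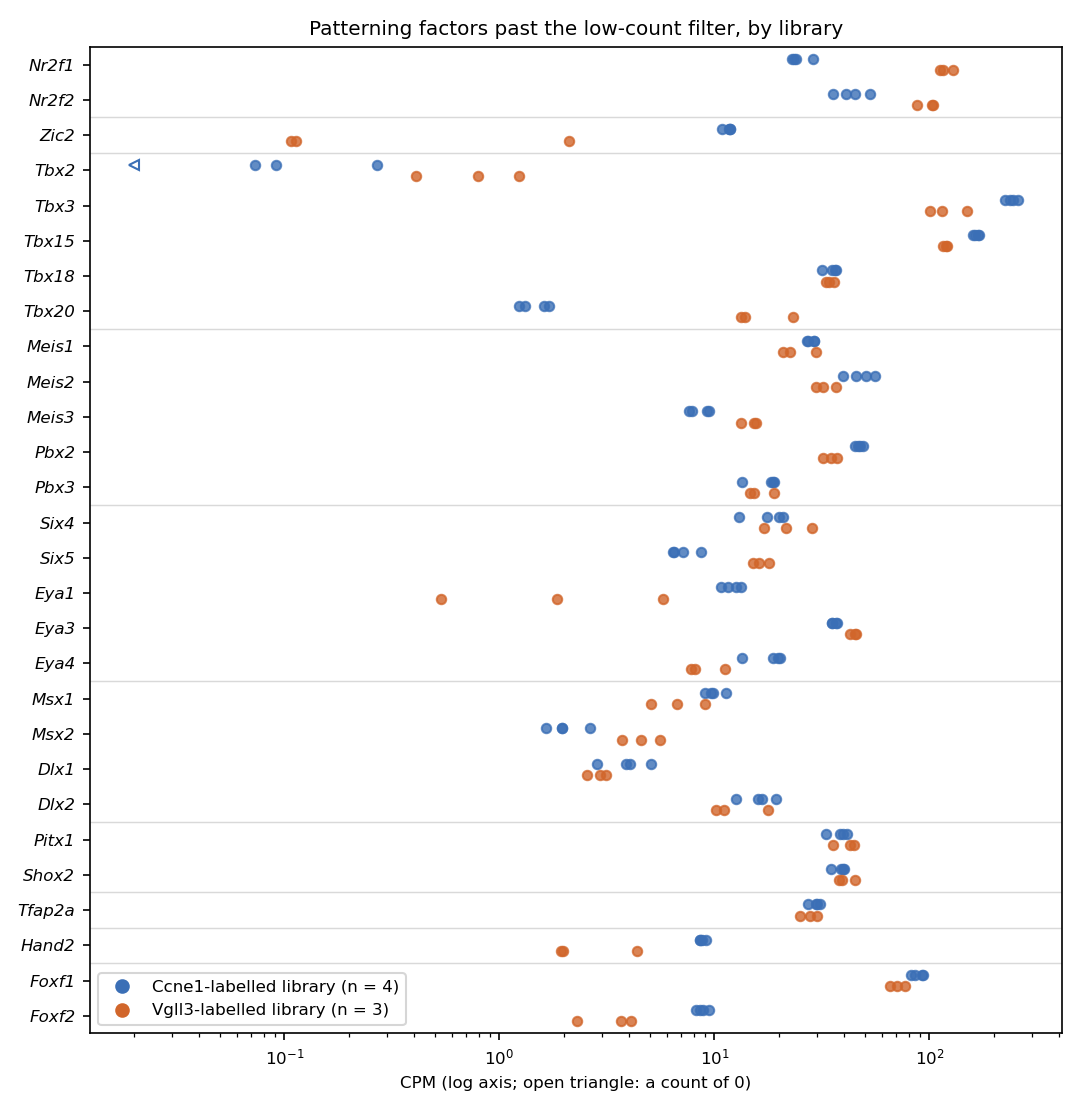
CPM of each tested patterning factor in each library, on a log axis, by model. The 4 Ccne1-labelled and 3 Vgll3-labelled libraries are separate points; Zic2, Eya1 and Hand2 show Vgll3-labelled replicate 3 between the other Vgll3-labelled libraries and the Ccne1-labelled group.

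**Figure D2:**
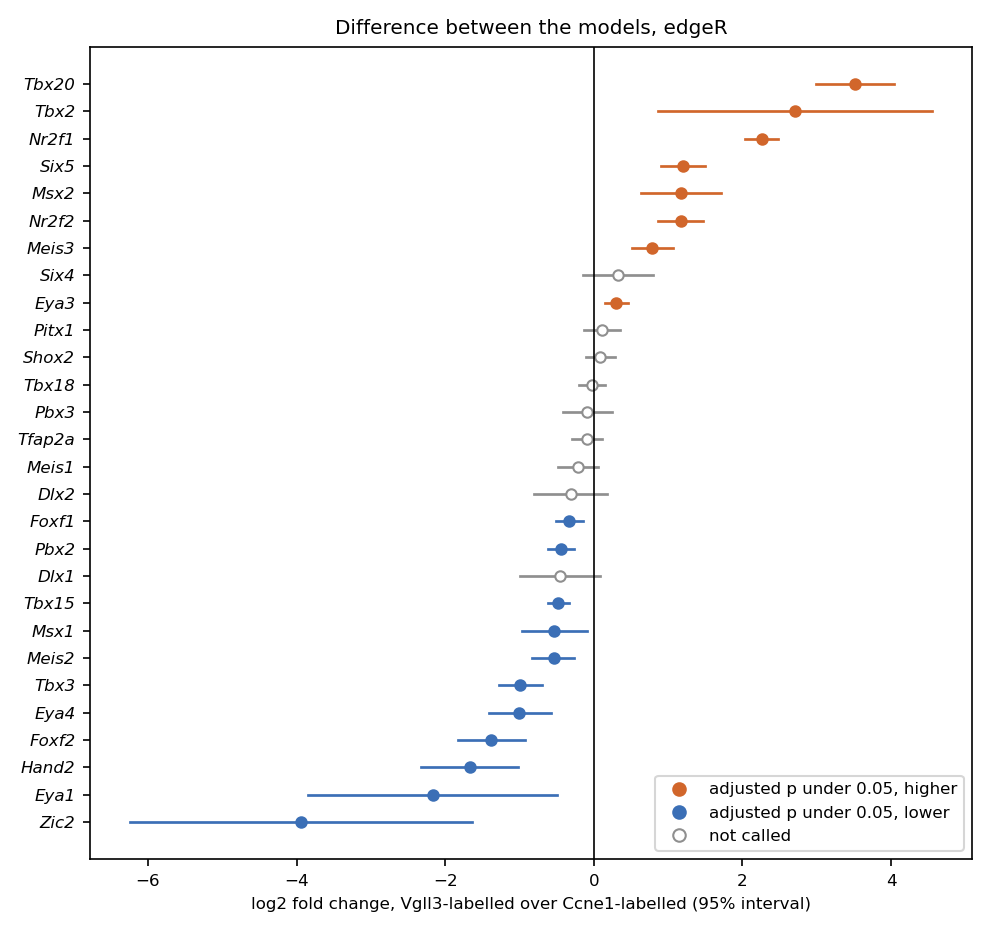
Log2 fold change (Vgll3-labelled over Ccne1-labelled) of the 28 tested patterning factors with 95% intervals from the edgeR fit. The 8 factors called higher lie to the right of 0 and the 11 called lower to the left; the other 9 have intervals that include 0.

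Promoters are shown for the factors that passed the test with a change of 2-fold or more and whose window lies outside the annotated gene. The sequences are from RefSeq (GRCm38.p6), which gave 32 windows for 28 of the 43 factors. Each run is the 250 bases before the start that RefSeq gives, 5′ to 3′ on the gene's strand, with motif matches in capitals. For Tbx20, Hand2 and Foxf2 that start opens a GENCODE transcript; for Nr2f2 and Six5 it lies upstream of the gene's GENCODE bounds and is not borne out by a transcript there. In order, they are Nr2f2 (chr7:70366747-70366996, minus strand), Tbx20 (chr9:24774304-24774553, minus strand), Six5 (chr7:19094294-19094543, plus strand), Hand2 (chr8:57320733-57320982, plus strand) and Foxf2 (chr13:31625566-31625815, plus strand).
Nr2f2: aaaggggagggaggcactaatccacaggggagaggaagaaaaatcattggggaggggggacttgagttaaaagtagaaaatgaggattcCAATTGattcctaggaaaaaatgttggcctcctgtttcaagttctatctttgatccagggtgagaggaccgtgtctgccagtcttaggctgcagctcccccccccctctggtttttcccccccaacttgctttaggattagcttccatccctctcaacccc
Tbx20: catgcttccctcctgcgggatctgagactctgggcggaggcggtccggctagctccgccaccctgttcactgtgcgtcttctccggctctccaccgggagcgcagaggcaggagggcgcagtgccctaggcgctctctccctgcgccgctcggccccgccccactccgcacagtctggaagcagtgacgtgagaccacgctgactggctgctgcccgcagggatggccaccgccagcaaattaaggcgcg
Six5: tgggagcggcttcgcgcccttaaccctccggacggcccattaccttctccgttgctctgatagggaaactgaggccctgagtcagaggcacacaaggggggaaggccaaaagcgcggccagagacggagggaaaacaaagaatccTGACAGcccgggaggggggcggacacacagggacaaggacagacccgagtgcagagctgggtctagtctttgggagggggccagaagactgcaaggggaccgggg
Hand2: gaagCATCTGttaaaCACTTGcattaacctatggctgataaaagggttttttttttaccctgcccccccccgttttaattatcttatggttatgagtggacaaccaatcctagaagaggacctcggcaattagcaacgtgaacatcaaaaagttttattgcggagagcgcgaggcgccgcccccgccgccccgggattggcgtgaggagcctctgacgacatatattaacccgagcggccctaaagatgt
Foxf2: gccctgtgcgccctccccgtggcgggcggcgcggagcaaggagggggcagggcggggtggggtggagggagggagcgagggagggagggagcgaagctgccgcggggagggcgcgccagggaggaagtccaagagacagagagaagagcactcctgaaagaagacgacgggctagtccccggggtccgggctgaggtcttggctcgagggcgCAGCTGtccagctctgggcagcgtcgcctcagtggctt

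The motifs searched on both strands, in windows that run from 250 bases before to 50 after the start, were the TEAD site GGAATG, the E-box CANNTG that bHLH factors bind, the T-box site GGTGTGA, the HOX-PBX-type site TGATTGA and the MEIS-type site TGACAG. No overlap between motifs was removed. Hand2, itself a bHLH gene, carried 2 E-boxes, and Nr2f2 and Foxf2 carried 1 each in the bases printed. Six5 carried the MEIS-type letters and Tbx20 none of the 5 motifs there. Among the 15 windows of 13 called factors, 10 (66.7%) held an E-box, beside 72.3% of all 32851 promoter windows. The TEAD letters were in 0 of these 15 windows and in 3 of the 32 (9.38%) of all the patterning factors, beside 14.7% of all windows. The MEIS-type and HOX-PBX-type letters were in 1 of the 15 each, beside 19.2% and 2.70% of all windows, and the T-box site in 0 beside 3.98%. These are matches of letters in a window and not sites of binding.

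The COUP-TF receptors, orphan nuclear receptors of venous endothelium and of limb and cranial mesenchyme, were both higher in the Vgll3-labelled libraries. Nr2f1 (chromosome 13, 78188973 to 78199757, GRCm38) had 28.8, 23.8, 23.4 and 22.9 CPM in the Ccne1-labelled replicates 1 to 4 and 115, 112 and 128 in the Vgll3-labelled replicates 1 to 3. The groups were far apart, with a log2 fold change of 2.26 (SE 0.10), or 4.79-fold (edgeR, Benjamini-Hochberg adjusted p = 2.41e-06). Nr2f2 (chromosome 7, 70351944 to 70366735) had 53.1, 35.5, 40.9 and 45.2 CPM against 103, 103 and 87.6. Its log2 fold change was 1.17 (SE 0.13, edgeR Benjamini-Hochberg adjusted p = 0.000132), and the groups did not overlap. Per kilobase of exon, the pair together rose from 9.92 ± 1.33 (SD, n = 4) to 34.6 ± 0.655 CPM per kb (SD, n = 3). Nr2f1 made 49.1 ± 3.00% of that sum in the Ccne1-labelled and 67.2 ± 3.57% in the Vgll3-labelled libraries. Both genes share exon bases with an antisense transcript, and the sources do not state if counting used strand.

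The T-box factors split, with Tbx20 and Tbx2 higher and the abundant Tbx3 and Tbx15 lower in the Vgll3-labelled libraries. Tbx20, a regulator of heart and lateral plate mesoderm (chromosome 9, 24718138 to 24774303), had 1.32, 1.23, 1.61 and 1.71 CPM in the Ccne1-labelled and 23.1, 13.9 and 13.3 in the Vgll3-labelled libraries. Its log2 fold change of 3.52 (SE 0.23), or 11.5-fold, was the highest of the tested patterning factors (edgeR, Benjamini-Hochberg adjusted p = 1.04e-05). Tbx2, a transcriptional repressor active in limb and heart development (chromosome 11, 85832551 to 85841948), rested on few reads: 2, 14, 0 and 2 counts against 19, 21 and 37. In CPM these were 0.0910, 0.269, 0 and 0.0727 against 0.407, 0.793 and 1.24, a log2 fold change of 2.71 (SE 0.81, edgeR Benjamini-Hochberg adjusted p = 0.0205). The Tbx2 call was lost without Ccne1-labelled replicate 4 (adjusted p = 0.0535), without Vgll3-labelled replicate 2 (adjusted p = 0.05 after rounding) and with a replicate block (adjusted p = 0.0921), and its log2 fold change was 3.90 without Ccne1-labelled replicate 2.

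Tbx3, which marks limb margins and is mutated in ulnar-mammary syndrome (chromosome 5, 119670669 to 119684724), had 236, 258, 244 and 225 CPM in the Ccne1-labelled libraries and 149, 115 and 101 in the Vgll3-labelled libraries. It fell by 0.99 on the log2 scale (SE 0.13, edgeR Benjamini-Hochberg adjusted p = 0.000264), just short of 2-fold. Tbx15, a factor of limb and trunk mesenchyme (chromosome 3, 99240381 to 99354259), had 159, 169, 162 and 171 CPM against 121, 119 and 116. Its fall was smaller, with groups as clearly apart (log2 fold change -0.48, SE 0.06, edgeR Benjamini-Hochberg adjusted p = 0.00028). Tbx18, a factor of somite and epicardial mesoderm, had 36.4, 36.6, 31.7 and 35.1 CPM against 34.1, 36 and 33.0, with groups that overlapped. Its log2 fold change was -0.03 (95% interval -0.20 to 0.15, edgeR Benjamini-Hochberg adjusted p = 0.797).

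Per kilobase of exon, Tbx15 had the highest level of all the patterning factors in both models, at 44.1 CPM per kb in the Ccne1-labelled and 31.6 in the Vgll3-labelled libraries. Foxf1 (36.7 and 29.3 CPM per kb) and Tbx3 (36.4 and 18.3) came next in the Ccne1-labelled libraries; in the Vgll3-labelled libraries Nr2f1, at 23.3 CPM per kb, lay between them. In the Ccne1-labelled libraries Tbx15, Foxf1 and Tbx3 were above 92.6%, 91.0% and 90.9% of tested genes. The T-box sum was 88.0 ± 2.64 CPM per kb (SD, n = 4) against 58.9 ± 4.83 (SD, n = 3). Tbx3 made 41.3 ± 1.56% of the sum in the Ccne1-labelled and 31.0 ± 3.69% in the Vgll3-labelled libraries, Tbx15 50.1 ± 1.47% and 53.9 ± 3.11%, and Tbx20 0.139 ± 0.0238% and 2.34 ± 0.575%. So Tbx20, in spite of the highest fold, stayed a minor transcript of the family.

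**Figure D3:**
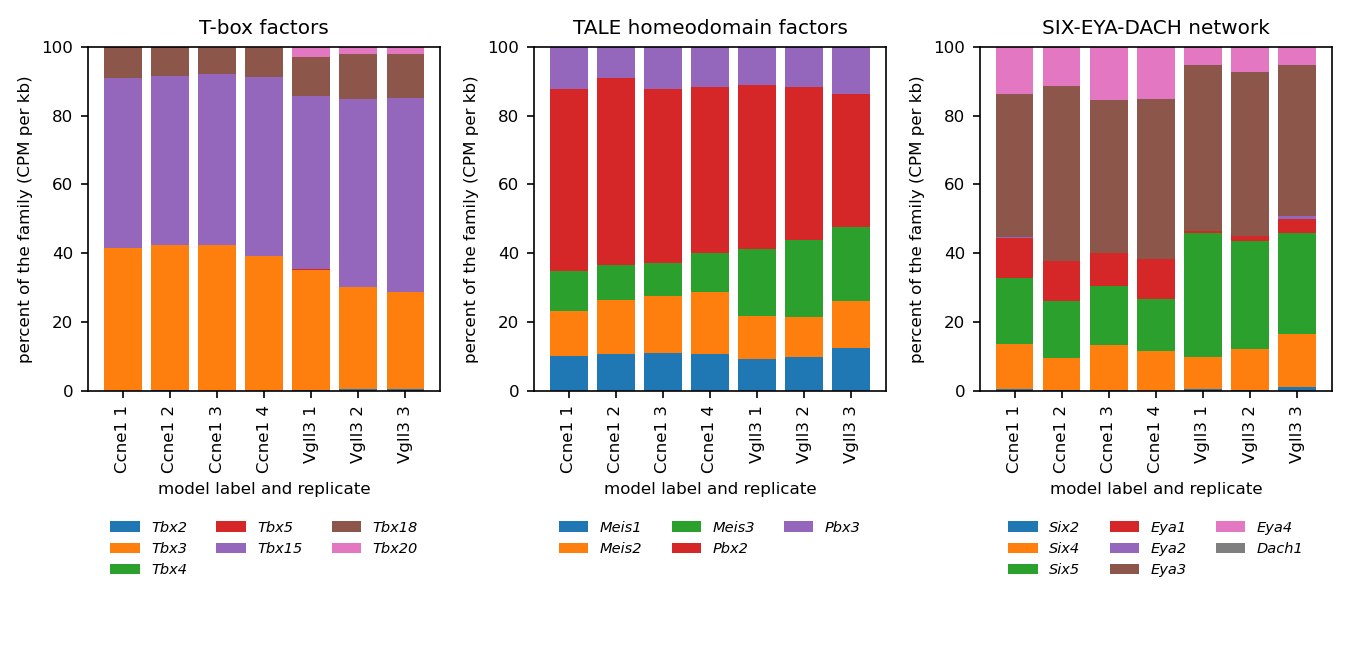
Share of each T-box, TALE and EYA-SIX-DACH factor in its family's summed CPM per kb, in percent, for each library. Meis3 and Six5 take a larger share, and Tbx3, Eya1 and Eya4 a smaller share, in the 3 Vgll3-labelled libraries.

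Of the listed ZIC, HAND and forkhead factors, those that could be tested were Zic2, Hand2, Foxf1 and Foxf2, and all were lower in the Vgll3-labelled libraries. Forkhead genes outside the list, given below, went in both directions, with Foxd2 called higher and Foxc2 called lower. Zic2, a zinc finger factor of the dorsal neural tube and early neural crest (chromosome 14, 122475435 to 122479852), had 10.8, 11.7, 11.8 and 11.8 CPM in the Ccne1-labelled libraries. The Vgll3-labelled libraries had 0.107, 0.113 and 2.11 CPM, from 5, 3 and 63 counts, so replicates 1 and 2 were close to absence and replicate 3 was not. The log2 fold change was -3.94 (SE 0.95), or 15.3-fold lower (edgeR, Benjamini-Hochberg adjusted p = 0.0135), and without Vgll3-labelled replicate 3 it was -6.66; without replicate 1 of that group it was -3.35. Hand2, a bHLH factor of limb bud, heart and branchial arches (chromosome 8, 57320983 to 57324633), had 8.55, 8.74, 8.58 and 9.16 CPM against 1.97, 1.93 and 4.38. Its Ccne1-labelled libraries were closely grouped and all above the Vgll3-labelled ones, with a log2 fold change of -1.67 (SE 0.29, edgeR Benjamini-Hochberg adjusted p = 0.00134). Hand2 shares 461 exon bases with the antisense-strand Hand2os1.

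Foxf2, a forkhead factor of gut and craniofacial mesenchyme (chromosome 13, 31625816 to 31631403), had 8.24, 9.41, 8.83 and 8.57 CPM against 4.07, 2.30 and 3.68. Its log2 fold change was -1.38 (SE 0.20, edgeR Benjamini-Hochberg adjusted p = 0.000495), with no overlap. Its paralogue Foxf1, a hedgehog target in lateral plate mesoderm (chromosome 8, 121084386 to 121088144), had 82.4, 92.5, 93.8 and 86.0 CPM against 70.3, 65.4 and 76.6. Its change was smaller, with a log2 fold change of -0.33 (SE 0.08, edgeR Benjamini-Hochberg adjusted p = 0.00813). Foxf1 made 90.8 ± 0.276% of the forkhead sum per kilobase in the Ccne1-labelled and 95.4 ± 1.06% in the Vgll3-labelled libraries.

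In the EYA-SIX-DACH network, where the homeodomain proteins bind DNA and EYA proteins are their coactivators, the members moved in both directions. Six5, a homeodomain factor (chromosome 7, 19094594 to 19098549), had 8.64, 6.43, 7.12 and 6.50 CPM in the Ccne1-labelled and 17.9, 16.1 and 15.1 in the Vgll3-labelled libraries. It was higher by 1.20 on the log2 scale (SE 0.13, edgeR Benjamini-Hochberg adjusted p = 0.000109). Six4, a homeodomain factor of muscle precursors, had 20.8, 13.0, 19.9 and 17.5 CPM against 17.0, 21.5 and 28.3. The groups overlapped, and its log2 fold change was 0.32 (95% interval -0.15 to 0.80, edgeR Benjamini-Hochberg adjusted p = 0.220).

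Eya1, the EYA gene of ear, kidney and branchial arch development (chromosome 1, 14168954 to 14310235), had 13.3, 11.6, 10.7 and 12.6 CPM against 0.536, 1.85 and 5.79, and every Vgll3-labelled library was below every Ccne1-labelled one. The log2 fold change was -2.17 (SE 0.70, edgeR Benjamini-Hochberg adjusted p = 0.0379), and -3.44 without Vgll3-labelled replicate 3. The Eya1 call was lost with no low-count filter (adjusted p = 0.0960), with a replicate block (0.0941), without any 1 of the Ccne1-labelled replicates 1 to 4 (0.0727, 0.0756, 0.0674 and 0.0710) and without Vgll3-labelled replicate 2 (0.117). Eya4, an EYA gene of ear and heart (chromosome 10, 23102963 to 23350786), had 18.8, 13.4, 20.2 and 19.8 CPM against 7.80, 11.2 and 8.10, a log2 fold change of -1.0 (SE 0.18, edgeR Benjamini-Hochberg adjusted p = 0.00179), just short of 2-fold. Eya3, the most broadly expressed EYA gene, had 35.0, 36.6, 35.1 and 37.2 CPM against 45.1, 45.8 and 42.5. Its change was small but the groups were apart, at a log2 fold change of 0.30 (SE 0.07, edgeR Benjamini-Hochberg adjusted p = 0.00459); the median over tested genes of its chromosome, 4, was 0.44. By share of the family's summed CPM per kb, Six5 went from 17.1 ± 1.68% (SD, n = 4) to 32.4 ± 3.48% (SD, n = 3) and Eya1 from 11.1 ± 0.834% to 2.05 ± 2.04%.

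TALE homeodomain proteins are DNA-binding partners of HOX proteins. Meis3 was the TALE gene called higher, with 9.46, 7.89, 7.59 and 9.26 CPM in the Ccne1-labelled and 13.3, 15.3 and 15.5 in the Vgll3-labelled libraries. Its log2 fold change was 0.79 (SE 0.12, edgeR Benjamini-Hochberg adjusted p = 0.000664), and its share of the family's CPM per kb went from 10.7 ± 1.04% to 21.2 ± 1.50%. Meis2, a factor of proximal limb and cranial crest, had 39.7, 45.8, 50.6 and 55.8 CPM against 32.1, 29.7 and 36.9. The groups came close but did not overlap, and the log2 fold change was -0.54 (SE 0.13, edgeR Benjamini-Hochberg adjusted p = 0.00594). Pbx2, a PBX cofactor of HOX and MEIS proteins, had 48.9, 47.6, 46.7 and 45.3 CPM against 37.2, 34.7 and 31.9, with a log2 fold change of -0.44 (SE 0.08, edgeR Benjamini-Hochberg adjusted p = 0.00126). The median over tested genes of its chromosome, 17, was -0.33, and 227 of its exon bases lie in Gpsm3 on the same strand, which was itself higher by 1.89 on the log2 scale.

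Meis1, another proximal limb factor, had 27.2, 26.9, 29.0 and 29.2 CPM against 20.8, 22.4 and 29.5. Vgll3-labelled replicate 3 was at the Ccne1-labelled level, and the log2 fold change of -0.21 did not pass the test (95% interval -0.48 to 0.06, edgeR Benjamini-Hochberg adjusted p = 0.167); without that library it was -0.37 and passed. Pbx3, a PBX gene of limb and brain, had 18.7, 13.4, 18.9 and 18.3 CPM against 14.7, 15.3 and 18.8, and the groups overlapped (log2 fold change -0.09, 95% interval -0.42 to 0.24, edgeR Benjamini-Hochberg adjusted p = 0.631).

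The MSX genes, homeodomain repressors induced by BMP signals, went in opposite directions. Msx2 (chromosome 13, 53466884 to 53473074), a skull and limb factor, had 2.64, 1.96, 1.64 and 1.96 CPM in the Ccne1-labelled and 3.73, 5.55 and 4.55 in the Vgll3-labelled libraries. It was higher by 1.17 on the log2 scale (SE 0.24, edgeR Benjamini-Hochberg adjusted p = 0.00311). Msx1, its paralogue in palate and tooth mesenchyme, had 11.4, 9.05, 9.88 and 9.59 CPM against 6.67, 5.06 and 9.0, so that its groups were nearly touching. Its log2 fold change was -0.53 (SE 0.19, edgeR Benjamini-Hochberg adjusted p = 0.0439), and the Msx1 call was lost under 10 of 15 alternative settings, at adjusted p of 0.0509 to 0.124.

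The DLX genes order the jaw and limb along their proximal to distal axis. Dlx1 had 4.05, 2.83, 3.87 and 5.05 CPM against 2.55, 3.14 and 2.95, with overlap and a log2 fold change of -0.46 (95% interval -0.99 to 0.08, edgeR Benjamini-Hochberg adjusted p = 0.133). Dlx2 had 19.2, 12.6, 16.6 and 15.9 CPM against 10.2, 11 and 17.7, again with overlap (log2 fold change -0.31, 95% interval -0.80 to 0.18, edgeR Benjamini-Hochberg adjusted p = 0.252). Without Vgll3-labelled replicate 3, which had the highest Dlx2 level of its group, the log2 fold change of Dlx2 was -0.59 and passed the test.

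The remaining tested factors overlapped between the models. Pitx1, which specifies the hindlimb, had 38.3, 33.0, 41.2 and 39.4 CPM against 35.7, 44.5 and 42.8 (log2 fold change 0.11, 95% interval -0.13 to 0.35, edgeR Benjamini-Hochberg adjusted p = 0.409). Shox2, a proximal limb factor, had 34.8, 39.9, 39.0 and 39.5 CPM against 39.1, 37.9 and 45.0 (log2 fold change 0.09, 95% interval -0.11 to 0.28, edgeR Benjamini-Hochberg adjusted p = 0.432). The AP-2 factor Tfap2a, a regulator of neural crest induction, had 29.6, 30.9, 27.2 and 29.9 CPM against 27.9, 24.9 and 30.1 (log2 fold change -0.09, 95% interval -0.29 to 0.11, edgeR Benjamini-Hochberg adjusted p = 0.415). None of these 3 intervals reached beyond 0.35 on the log2 scale in either direction.

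The other 15 factors were too low to test: Zic1, Tbx4, Tbx5, Six2, Eya2, Dach1, Dlx5, Barx1, Alx1, Alx4, Lmx1b, Tfap2c, Hand1, Tcf21 and Foxd1. None exceeded 0.803 CPM in any library, and 9 had fewer than 10 counts over all 7 libraries. Hand1, the partner of Hand2 in heart and placenta, and Tcf21, a factor of visceral and facial mesoderm, were at 0 in every library. A zero allows up to 3 counts, or 0.0577 to 0.136 CPM by library, which covers counting error only. Thus the forelimb factor Tbx5 and the hindlimb factor Tbx4 were near or below that limit (7 and 2 counts in all), while Pitx1 was at 38.0 ± 3.51 CPM (SD, n = 4) in the Ccne1-labelled libraries and 41.0 ± 4.67 (SD, n = 3) in the Vgll3-labelled libraries.

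Several family members lie beside a patterning factor on the chromosome. Zic5, another ZIC gene, lies 9.76 kb from Zic2 and had 2.18, 1.77, 2.29 and 2.47 CPM against 0.0214, 0.0378 and 0.602 (log2 fold change -3.34, SE 0.88, edgeR Benjamini-Hochberg adjusted p = 0.0126), with Vgll3-labelled replicate 3 the highest of its group as for Zic2. Foxc2, a forkhead factor of vessels and somites 28.0 kb from Foxf1, was at 13.4 ± 1.40 CPM (SD, n = 4) against 1.70 ± 0.357 (SD, n = 3), a log2 fold change of -2.99, and Foxl1, 39.8 kb from Foxf1, at -2.86, both far below the -0.33 of Foxf1 itself. Foxc1, 175 kb from Foxf2, had a log2 fold change of -0.98.

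Some neighbours went the other way or had no link in family; they were named after their values were seen. Dmpk, a kinase gene 772 bases from Six5, was at 88.5 ± 6.70 CPM (SD, n = 4) against 22.7 ± 10.1 (SD, n = 3), a log2 fold change of -1.97 (edgeR, Benjamini-Hochberg adjusted p = 0.000802) beside 1.20 for Six5. Bcas3, 6.49 kb from Tbx2, had a log2 fold change of -0.67 beside 2.71 for Tbx2. The median over tested genes of their chromosome, 11, was -0.30. Foxq1 near Foxf2 had a log2 fold change of 0.61, which did not pass the test (edgeR, Benjamini-Hochberg adjusted p = 0.174). Six3, 55.0 kb from the untested Six2, was higher, at 0, 0.0577, 0.0310 and 0.0363 CPM against 0.407, 0.605 and 1.47.

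**Figure D4:**
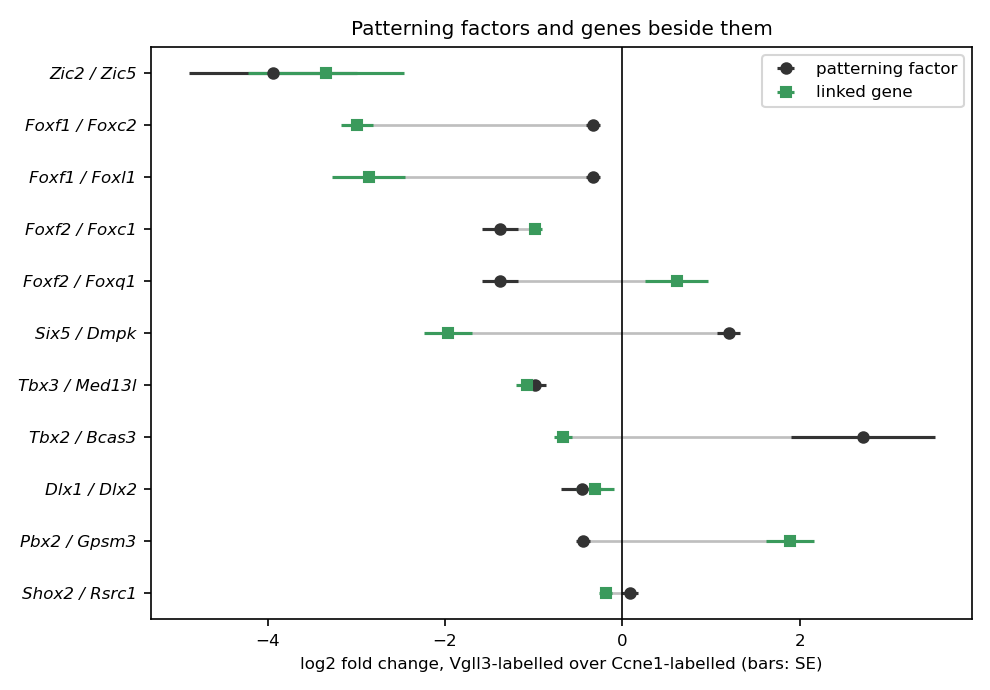
Log2 fold change of patterning factors and of the gene beside each, with bars of 1 SE. Foxc2 and Foxl1 lie further below 0 than their neighbour Foxf1, and Six5 and Dmpk lie on opposite sides of 0.

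Of 43 other genes of the same or related families, 19 were tested, and 2 were higher and 9 lower (edgeR, Benjamini-Hochberg), beside 25.1% and 26.8% of all genes. Their median log2 fold change was -0.54 against 0.01 over all genes. These genes were chosen with earlier results of these data known, so their share of lower calls is no test of them. Dlx4, a DLX gene, was at 3.17 ± 0.591 CPM (SD, n = 4) against 0.319 ± 0.338 (SD, n = 3), a log2 fold change of -3.35, and Six3 and the forkhead gene Foxd2 (log2 fold change 1.20) were the 2 called higher.

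Retinoic acid is a signal that sets position along body and limb axes, and MEIS and COUP-TF genes respond to it. Of 19 genes for its synthesis, breakdown, transport and receptors, 13 were tested, 6 were lower and 0 higher by edgeR with Benjamini-Hochberg adjustment; 0 were higher at an unadjusted p under 0.05 as well, while DESeq2 called 1, Cyp26a1, at 0 to 0.145 CPM against 0.257 to 0.636. The lower share was 46.2%, beside 26.8% of all genes called lower and 25.1% called higher, and the median log2 fold change was -0.63 against 0.01 over all genes. Cyp26b1, the enzyme that breaks down retinoic acid in limb and face, was at 43.2 ± 9.69 CPM (SD, n = 4) against 3.19 ± 1.90 (SD, n = 3), a log2 fold change of -3.77 (edgeR, Benjamini-Hochberg adjusted p = 0.000313). The retinaldehyde reductase Dhrs3 (log2 fold change -1.86) was lower too. So was the synthesis enzyme Rdh10, at 165 ± 19.8 CPM (SD, n = 4) against 48.4 ± 3.52 (SD, n = 3), a log2 fold change of -1.77. The receptors Rara (-0.63) and Rxra (-0.27) were also lower, so the lower genes were not confined to breakdown. The list was chosen with earlier results of these data known, so its share of lower calls is no test of it. Retinoic acid itself was not measured.

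Among 24 paraxial and limb mesoderm genes outside the 43, 16 were tested, 6 were higher (37.5%) and 3 lower (18.8%), beside 25.1% and 26.8% of all genes, with a median log2 fold change of 0.01. The limb genes Lhx2 (log2 fold change 2.07), Osr1 (1.27) and Lhx9 (1.11) led the higher ones. Prrx1, a general marker of limb and craniofacial mesenchyme, was lower, at 530, 662, 631 and 703 CPM against 261, 209 and 188 (log2 fold change -1.52, edgeR Benjamini-Hochberg adjusted p = 4.21e-05), as were Lef1 (-1.37) and Prrx2 (-0.68). Of 12 neural crest specifiers, 8 were tested, Mitf (1.40) and Ets1 (0.32) were higher and Ngfr (-3.72) was lower, shares of 25.0% and 12.5% with a median of -0.20. Ngfr rested on few reads in the Vgll3-labelled libraries (0, 1 and 7 counts), and the SE of its log2 fold change was 0.92. Of 10 E proteins, ID and TWIST genes, which dimerise with or restrain HAND factors, 9 were tested: Id3 (0.79) and Tcf3 (0.30) were higher and Id2 (-1.49), Id1 (-1.20) and Twist2 (-0.70) lower, shares of 22.2% and 33.3% with a median of -0.06. These shares, each from 8 or 9 genes, are read against the same 25.1% and 26.8% and set neither list apart.

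**Figure D5:**
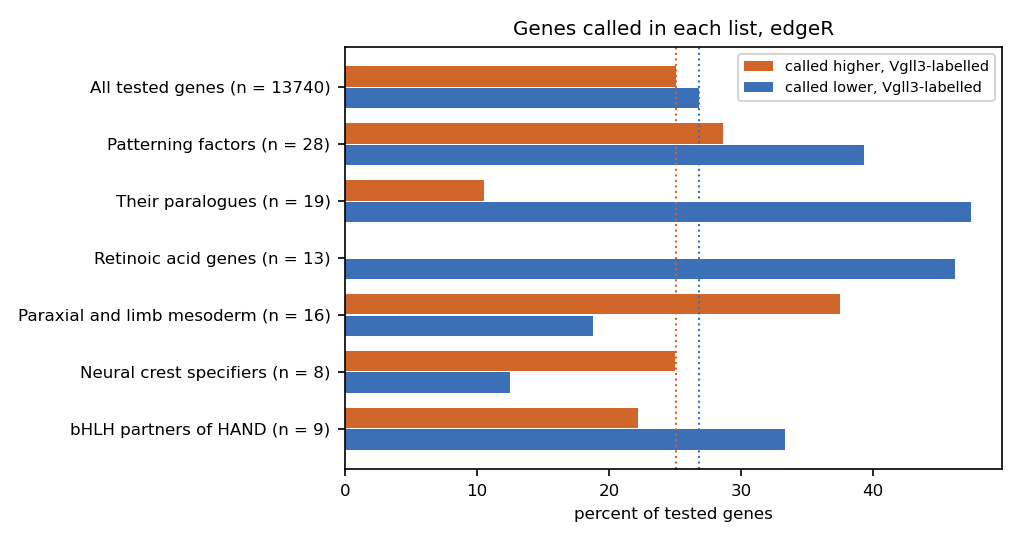
Percent of tested genes called higher or lower in each gene list and among the 13740 tested genes. The family members outside the 43 and the retinoic acid genes have more lower calls (47.4% and 46.2%) than all genes (26.8%). Both lists are small (19 and 13 tested genes) and were chosen with earlier results of these data known.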

How the data were processed

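RNA-seq of RFP+ mouse sarcoma cells was measured in 7 libraries, 4 labelled Ccne1 and 3 labelled Vgll3, grouped by the labels. The authors deposited estimated counts for Ensembl genes, made with Salmon and genome build mm10, per the submitters' processing notes. The annotation, the Salmon version and the use of strand are stated in no source used here. All values were whole, so 0 were rounded. Genes (35493 of 35727) were matched to GENCODE symbols and positions on GRCm38. A count estimated by transcript can be split among similar or overlapping genes, and a library's depth sets its precision: totals were 21725890 to 53610300 counts.

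The gene test was edgeR 4.0.16 (R 4.3.3) with filterByExpr at a minimum count of 10, TMM scaling, the robust quasi-likelihood F test with model as the only term, and Benjamini-Hochberg adjustment over 13740 genes at 0.05. The SE is the absolute log2 fold change over the square root of F, and intervals are 95%. The biological coefficient of variation was 20.7%. CPM used TMM effective library sizes, and CPM per kb used the summed exon length of the gene. No library was a copy of another: chi-square over its degrees of freedom was 12.4 to 96.3 for pairs within a group. The test was also run on simulated counts with few changed genes and the same dispersion for every gene. That setting is simpler than these data, and its outcome is not reported here.

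The 43 factors and the gene lists were chosen with earlier results of these data known. Named genes were all 43, the top gene of each marker list, Vgll3 and Ccne1. From each list at most 3 called genes in each direction were named, by log2 fold change. Foxl1 and Foxc1 are family members beside a factor. Dmpk, Bcas3, Foxq1, Gpsm3, Cyp26a1, Rdh10, Rara, Rxra, Kcnj8, Abcc9, Myh11 and Tnnt3 were added after their values were seen. So were the endothelial markers other than Pecam1. Antisense and long RNAs beside the factors were not analysed here, and a few genes that this rule names are not reported here. Alternatives were RLE, upper quartile or library-total scaling, no filter, a minimum count of 30, DESeq2 1.42.0, limma-voom (limma 3.58.1), a replicate block and leaving out each library.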

Additional observations from a re-analysis of the deposited data

Results flagged for a closer look

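Within the 4 Ccne1-labelled libraries, 3 of the 28 tested patterning factors had a library far from the other 3 by Dixon's test; chance gives this in about 1 in 20 groups. Nr2f1 was at 28.8 CPM in replicate 1, where the others had 22.9 to 23.8. Zic2 was at 10.8 CPM in replicate 1, where the others had 11.7 to 11.8. Pbx3 was at 13.4 CPM in replicate 2, where the others had 18.3 to 18.9. The group of 3 Vgll3-labelled libraries was too small for this test.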

How the results depend on the processing

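Of the 19 called patterning factors, 16 kept their direction and their call under every one of the 15 alternatives. Tbx2, Eya1 and Msx1 lost theirs under some settings, as given above, and Tbx2 was not tested under the stricter filter. The factors called lower numbered 9 to 13 and those called higher 7 to 9 when each library was left out in turn. Tbx18, which was not called, had a log2 fold change of 0.06 with upper quartile scaling and -0.07 to 0.01 when each library was left out, the highest without Vgll3-labelled replicate 3, against -0.03 in the report; the cause was not tested. Alx4, too low for the main test, was called higher with DESeq2 and without Vgll3-labelled replicate 1. With a replicate block, 2287 of all genes were called higher and 2554 lower, against 3454 and 3679, and 7 and 9 patterning factors. The labels do not say that libraries of the same number are paired. Same-numbered libraries did not deviate together (r of -0.151, -0.167 and -0.103). Differently numbered libraries were not compared in this way, so these values cannot exclude a shared batch. Some list counts moved by over 1.5 times. Family members called higher were 2, against 4 with upper quartile scaling and 1 with the stricter filter or the block. Retinoic acid genes called higher were 0, against 1 (Cyp26a1) with no filter, with DESeq2 and without Vgll3-labelled replicate 1. Neural crest specifiers called higher were 2, against 1 with the block and without Vgll3-labelled replicate 1 or 2; those called lower were 1, against 2 with DESeq2 or limma-voom and 3 without Vgll3-labelled replicate 3. E protein, ID and TWIST genes called higher were 2, against 1 with the block. Low counts limit Tbx2 and the 15 untested factors.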

Other observations

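Among the 11 patterning factors called lower, Vgll3-labelled replicate 3 was the highest of its group for 6 (54.5%), beside 1453 of the 3679 genes called lower (39.5%). These 6 were Zic2, Eya1, Hand2, Msx1, Meis2 and Foxf1. The neural crest factor Pax3, named after its values were seen, had 7.69, 8.91, 8.05 and 9.41 CPM in the Ccne1-labelled libraries and 0.536, 0.416 and 6.63 in the Vgll3-labelled ones, and did not pass the test (log2 fold change -1.77, edgeR Benjamini-Hochberg adjusted p = 0.161). The difference of this library from the other Vgll3-labelled libraries has no replicate.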
